A study of Homo sapiens with 18 samples.

Results

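The genes described here are 9 of the 25343 genes in the deposited tables, namely NFE2L2, which encodes the transcription factor NRF2, KEAP1, which encodes its inhibitor, and 7 genes known as NRF2 targets: HMOX1, NQO1, TXNRD1, SRXN1, PGD, ME1 and OSGIN1. They were taken by name, through their Entrez gene IDs. The RNA is from mouse xenografts of HCT116 cells, a human colorectal carcinoma line, made null for PTDSS2, and every group carries that deletion. Mice received vehicle (0.5% methylcellulose), or DS55980254, a compound known here by its code, at 10 mg/kg or at 30 mg/kg by mouth, and tumours were taken after 24 hours, with 6 libraries per group and 18 in all. The title of the series names a PTDSS1 inhibitor and cancers that have lost PTDSS2. The labels do not say whether the knockout is 1 clone or whether replicates are separate animals; p-values measure only the spread between these libraries, which may be technical. Tumours were homogenised whole and can hold mouse host cells.

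NRF2 is a transcription factor that switches on genes for defence against oxidants. In unstressed cells KEAP1 binds it and hands it to a ubiquitin ligase built on CUL3, so that the protein is short-lived; oxidants and electrophiles modify cysteines of KEAP1, and NRF2 then pairs with small MAF proteins at antioxidant response elements. Much of this control acts on the NRF2 protein, which mRNA counts do not measure. Many targets make or spend NADPH, the reductant that the thioredoxin and glutathione systems draw on.

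Total expected counts per library lay between 3435435 and 8538793 in 17 libraries and were 433989 in 10 mg/kg replicate 2, whose log2 values also correlated least with the others (mean r = 0.71, against 0.94 to 0.954). Values at 10 mg/kg are therefore given with and without that library where it matters. Summed colon epithelial markers (12 genes) had a median of 6110 CPM (counts normalised to library size) under vehicle. The median was 6150 CPM in the 10 mg/kg group and 6180 CPM in the 30 mg/kg group. Of these 12 genes, 8 passed the filter on low counts: EPCAM, CDH1, KRT8, KRT18, KRT19, CLDN4, CLDN7 and ELF3. TSPAN8 did not pass it and had no count in any library of the 10 mg/kg group. The sums therefore do not speak for every marker of the list. Transcripts of the knocked-out gene PTDSS2 (Entrez 81490) were still counted, at 8.75 ± 2.3 CPM under vehicle (SD, n = 6 each). They stood at 9.43 ± 2.32 CPM in the 10 mg/kg group and 7.91 ± 3.36 CPM in the 30 mg/kg group. Counts per gene do not show whether these transcripts carry the edit.

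Sequence windows around transcription starts were used for 8 of the 9 genes, all but HMOX1, from 250 bases before to 50 bases after each RefSeq start on GRCh38.p14. The core of the antioxidant response element, TGACNNNGC, was looked for on both strands. It lay in windows of 4 of the 8 genes, against 16.1% of 27305 genes in the same table. These windows are printed because the match sits in TXNRD1, PGD and ME1, whose levels are described at length further on, and in KEAP1, the inhibitor. All run 5′ to 3′ on the strand of the gene, with the matched core in capitals.
TXNRD1 upstream start, chr12:104215529-104215828, plus strand: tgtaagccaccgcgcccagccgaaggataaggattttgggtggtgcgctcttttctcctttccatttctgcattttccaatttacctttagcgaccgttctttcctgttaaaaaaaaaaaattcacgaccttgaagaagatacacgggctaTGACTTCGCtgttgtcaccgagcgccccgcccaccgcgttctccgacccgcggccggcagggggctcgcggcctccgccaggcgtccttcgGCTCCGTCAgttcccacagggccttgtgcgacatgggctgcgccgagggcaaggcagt
TXNRD1 downstream start, chr12:104286782-104287081, plus strand: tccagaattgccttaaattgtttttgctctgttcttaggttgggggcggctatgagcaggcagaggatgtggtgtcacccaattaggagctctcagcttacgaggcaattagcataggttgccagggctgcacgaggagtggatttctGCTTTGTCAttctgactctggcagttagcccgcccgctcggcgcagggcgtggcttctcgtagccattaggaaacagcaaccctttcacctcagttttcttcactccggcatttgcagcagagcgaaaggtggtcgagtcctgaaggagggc
PGD, chr1:10398814-10399113, plus strand: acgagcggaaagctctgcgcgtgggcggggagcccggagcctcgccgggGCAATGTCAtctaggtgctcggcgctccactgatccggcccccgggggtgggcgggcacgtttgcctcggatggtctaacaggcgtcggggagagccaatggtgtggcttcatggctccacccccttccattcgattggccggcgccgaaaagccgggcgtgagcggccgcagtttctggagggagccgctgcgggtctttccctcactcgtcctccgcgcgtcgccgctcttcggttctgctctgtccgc
ME1, chr6:83431002-83431301, minus strand: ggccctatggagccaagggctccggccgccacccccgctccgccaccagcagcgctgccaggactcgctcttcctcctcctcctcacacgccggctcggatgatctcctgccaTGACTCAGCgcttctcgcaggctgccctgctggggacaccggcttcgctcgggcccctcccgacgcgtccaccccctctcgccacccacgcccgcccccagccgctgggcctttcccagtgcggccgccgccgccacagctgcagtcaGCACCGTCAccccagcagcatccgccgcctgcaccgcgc
KEAP1, chr19:10502722-10503021, minus strand: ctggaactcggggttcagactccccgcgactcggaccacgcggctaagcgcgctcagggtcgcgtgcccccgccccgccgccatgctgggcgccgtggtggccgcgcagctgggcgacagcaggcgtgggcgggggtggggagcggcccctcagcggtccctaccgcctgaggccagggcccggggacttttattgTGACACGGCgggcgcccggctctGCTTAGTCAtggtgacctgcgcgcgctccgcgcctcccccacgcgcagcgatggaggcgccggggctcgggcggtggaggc
Counted from the start site, the leftmost base of the match was at -201 in PGD, at -99 and -8 by the upstream start of TXNRD1 and at -102 by its downstream start. In KEAP1 the matches lay at -54 and -31. ME1 had a match at -137, which also contains the AP-1 motif TGANTCA, and another inside the transcribed part. OSGIN1 had the AP-1 motif alone, at -97; that motif is in 9.37% of genes. TGATGNAA, the motif of composite sites for ATF4, was in no window of these genes and in 4.46% of all genes. The windows of NFE2L2, NQO1 and SRXN1 held none of the 3 motifs. A match is a run of letters and not a measured binding site, and no match says only that the letters are not in this window.

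Levels per transcript length, as the authors' TPM, formed steps among the vehicle libraries. PGD and NQO1 were highest, with medians of 125 TPM (111 to 131) and 101 TPM (92.0 to 126), and their ranges overlapped. KEAP1 (median 59.6 TPM), NFE2L2 (58.5 TPM) and TXNRD1 (58.1 TPM) overlapped one another in range and lay below NQO1. SRXN1 (38.6 TPM) and ME1 (30.6 TPM) overlapped and stood lower, and HMOX1 (15.0 TPM) and OSGIN1 (10.4 TPM) were lowest, again with overlapping ranges. The NRF2 transcript and that of its inhibitor thus stood at similar levels per length, and the classic stress marker HMOX1 was among the least abundant of the set.

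None of the 9 genes passed the threshold, an adjusted p under 0.05 over all 14074 genes tested with edgeR's quasi-likelihood model, in any comparison. All 9 passed the filter on low counts. Over all genes tested, 0.469% were called at 10 mg/kg and 0.618% at 30 mg/kg against vehicle, with 0.419% and 0.568% higher. Groups did not overlap for 1.16% of all genes at 10 mg/kg and 1.73% at 30 mg/kg, and for 0 of the 9 at either dose. With shares this low, 0 of 9 does not set these genes apart. Tallies of libraries above the highest vehicle library are given further on for single genes. The share of all genes with such tallies was not computed, so they are descriptions. With DESeq2 and with limma-voom the count of the 9 was also 0 at both doses. Voom with sample weights, a fit chosen after the data were seen, called 1 of the 9 at each dose: ME1 at 30 mg/kg (adjusted p = 0.0369) and HMOX1 at 10 mg/kg (adjusted p = 0.0343). Over the same 14074 genes that fit called 315 at 30 mg/kg and 235 at 10 mg/kg, where edgeR called 87 and 66. At 30 mg/kg all 9 fold changes were above 1 (KEAP1 was marginally below 1 on the log2 TPM scales and with sample weights), with a median log2 difference from vehicle of 0.26, beside -0.001 over all genes, of which 49.8% were above 0. Of the 9, 4 had an unadjusted p under 0.05, all higher, against 4.18% of all genes that were higher at that level. These were TXNRD1, HMOX1, PGD and ME1. At 10 mg/kg 5 were above and 4 below the vehicle level (TXNRD1 and PGD, above it here, were below it on the log2 TPM scales), with a median log2 difference of 0.04, and 2 were higher at an unadjusted p under 0.05, against 5.42% of all genes. Without 10 mg/kg replicate 2, 7 were above and 2 below, with a median of 0.08, and 3 (HMOX1, PGD and ME1) were higher at an unadjusted p under 0.05, against 5.37% of all genes. Both doses were compared with the same vehicle libraries, so their values are not independent of each other.

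**Figure D1:**
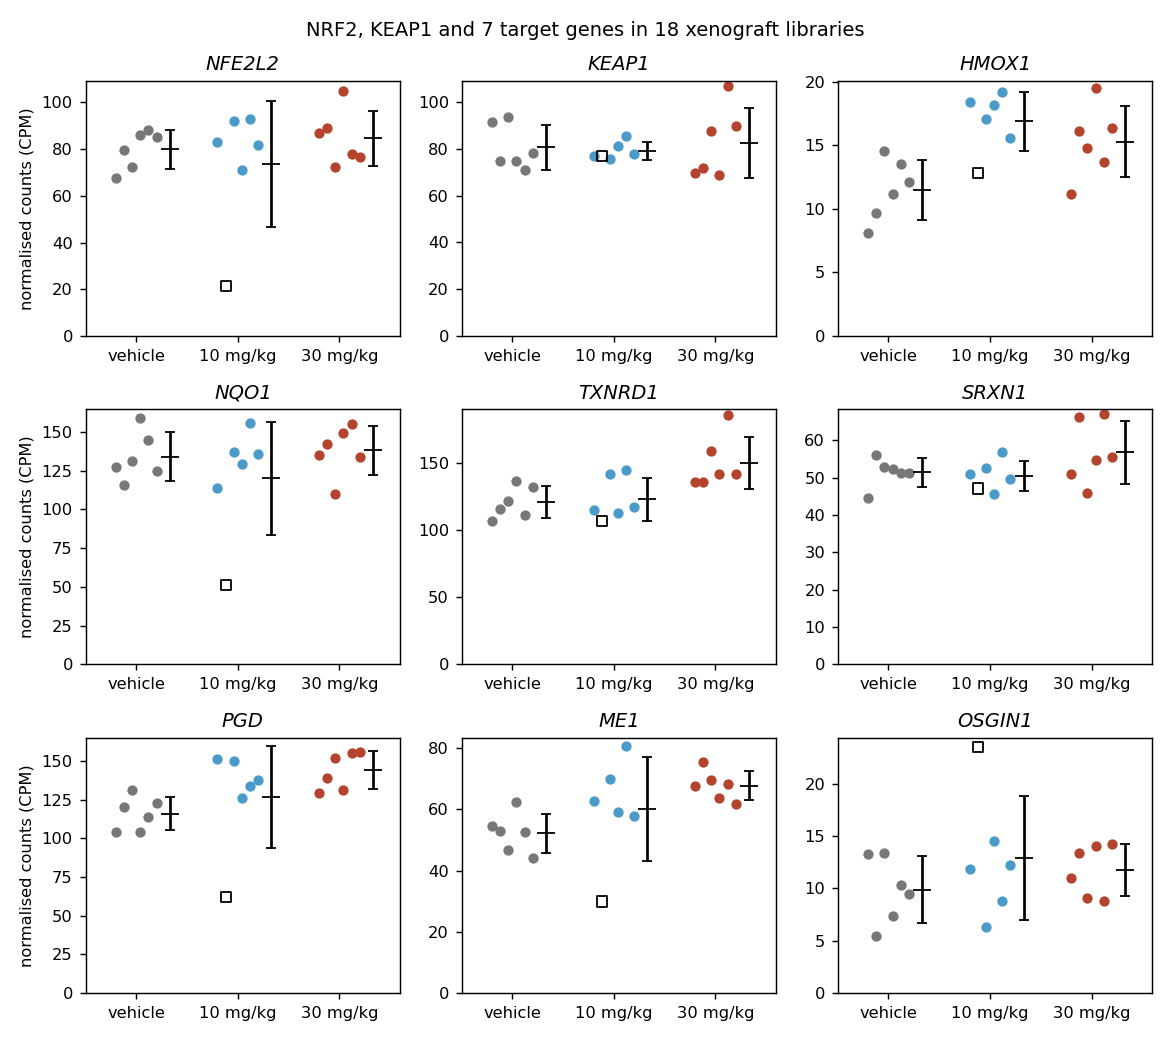
Normalised counts (CPM) of each gene in every library, with vehicle, 10 mg/kg and 30 mg/kg from left to right; bars show the mean and SD of 6 libraries and the open square is 10 mg/kg replicate 2. That library is lowest of its group for NFE2L2 at 21.4 CPM and for PGD at 62.0 CPM, and all 6 libraries at 30 mg/kg lie above the vehicle median for TXNRD1, PGD and ME1.

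NFE2L2 (Entrez 4780) and KEAP1 (Entrez 9817) make the sensor pair. NFE2L2 had a median of 82.5 CPM under vehicle (67.8 to 88.3), 82.5 in the 10 mg/kg group (21.4 to 93.1) and 82.5 in the 30 mg/kg group (72.2 to 105). The groups overlapped almost fully, apart from 10 mg/kg replicate 2, which rests on 10 counts. The fold was 1.06 at 30 mg/kg against vehicle (95% interval 0.848 to 1.32, adjusted p = 0.979). At 10 mg/kg it was 0.984 (0.784 to 1.23, adjusted p = 0.985), and 1.06 without replicate 2. KEAP1 had a median of 76.5 CPM under vehicle (71.1 to 93.6), 77.4 in the 10 mg/kg group (75.5 to 85.6) and 79.7 in the 30 mg/kg group (68.8 to 107). Its 10 mg/kg libraries all lay inside the range of the vehicle libraries, while at 30 mg/kg replicate 5 stood above it and replicates 1 and 4, at 69.8 and 68.8 CPM, stood below it. The fold of KEAP1 was 1.02 at 30 mg/kg (0.872 to 1.19, adjusted p = 0.998) and 0.982 at 10 mg/kg (0.836 to 1.15, adjusted p = 0.971). These intervals, which are not widened for the number of genes tested, leave room for changes of up to about those bounds in either transcript.

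HMOX1 (Entrez 3162) encodes heme oxygenase 1, which opens the heme ring to release biliverdin, iron and carbon monoxide. It showed the largest fold of the 9 at 10 mg/kg. It had a median of 11.7 CPM under vehicle (8.13 to 14.6), 17.7 in the 10 mg/kg group (12.8 to 19.2) and 15.5 in the 30 mg/kg group (11.2 to 19.5). At 10 mg/kg 5 of 6 libraries lay above the highest vehicle library, and the exception was replicate 2, where HMOX1 had 6 counts; at 30 mg/kg 4 of 6 did. The fold against vehicle was 1.51 at 10 mg/kg (95% interval 1.19 to 1.91; log2 0.59 ± 0.17, SE) with an unadjusted p of 0.0016 and an adjusted p of 0.163 by edgeR. Without replicate 2 the 10 mg/kg and vehicle libraries did not overlap, as for 2.04% of all genes tested, and the fold was 1.54 (adjusted p = 0.081). At 30 mg/kg it was 1.32 (1.05 to 1.67, adjusted p = 0.493). HMOX1 is also made by macrophages. Summed macrophage and leukocyte markers (14 genes) had medians of 15.1, 17.3 and 16.0 CPM in the vehicle, 10 mg/kg and 30 mg/kg libraries, with ranges of 13.0 to 19.5, 16.0 to 169 and 13.4 to 23.0 CPM, the highest in 10 mg/kg replicate 2. In the 30 mg/kg group TYROBP and C1QB were at 0 in every library, and with vehicle C1QA and C1QB were. These markers are human genes, whereas host macrophages would be mouse cells. How reads were split between the species is not known, so the sums cannot gauge host macrophages. The part of such cells in the values of HMOX1 was not tested. In bulk tumours fewer cells of a type and less RNA per cell cannot be told apart.

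TXNRD1 and SRXN1 belong to the thioredoxin arm. TXNRD1 (Entrez 7296), the cytosolic thioredoxin reductase, a selenoprotein that passes electrons from NADPH to thioredoxin, had a median of 119 CPM under vehicle (107 to 137), 116 in the 10 mg/kg group (107 to 145) and 142 in the 30 mg/kg group (136 to 186). At 30 mg/kg 4 of 6 libraries lay above the highest vehicle library and all 6 above the vehicle median, while the 10 mg/kg and vehicle ranges were nearly the same. The fold was 1.24 at 30 mg/kg (95% interval 1.07 to 1.45; log2 0.31 ± 0.11, SE; unadjusted p = 0.00649, adjusted p = 0.299 by edgeR). At 10 mg/kg it was 1.03 (0.883 to 1.2, adjusted p = 0.935). TXNRD1 was the gene of the 9 that set the doses apart most, at 1.21-fold for 30 mg/kg against 10 mg/kg (1.04 to 1.41, unadjusted p = 0.0177, adjusted p = 0.969). SRXN1 (Entrez 140809), sulfiredoxin, which repairs overoxidised peroxiredoxins, had a median of 51.7 CPM under vehicle (44.5 to 56.1), 50.2 in the 10 mg/kg group (45.7 to 56.9) and 55.1 in the 30 mg/kg group (45.9 to 67.1). All 3 groups overlapped, and only 30 mg/kg replicates 2 and 5 stood clear of the rest. Its fold was 1.10 at 30 mg/kg (0.95 to 1.28, adjusted p = 0.87) and 0.99 at 10 mg/kg (0.849 to 1.15, adjusted p = 0.998).

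PGD and ME1 encode enzymes that make NADPH in the cytosol, from the pentose phosphate pathway and from malate. PGD (Entrez 5226), phosphogluconate dehydrogenase, had a median of 117 CPM under vehicle (104 to 131), 136 in the 10 mg/kg group (62.0 to 151) and 145 in the 30 mg/kg group (129 to 156). At each dose 4 of 6 libraries lay above the highest vehicle library. The fold of PGD was 1.24 at 30 mg/kg (95% interval 1.03 to 1.48; log2 0.31 ± 0.13, SE; unadjusted p = 0.0237, adjusted p = 0.505 by edgeR). At 10 mg/kg it was 1.13 (0.938 to 1.35, adjusted p = 0.706), and without replicate 2, where PGD had 29 counts, it was 1.20 (unadjusted p = 0.00534, adjusted p = 0.2). ME1 (Entrez 4199), the cytosolic malic enzyme, had a median of 52.7 CPM under vehicle (44.1 to 62.4), 60.8 in the 10 mg/kg group (29.9 to 80.8) and 67.9 in the 30 mg/kg group (61.8 to 75.4). At 30 mg/kg 5 of 6 libraries lay above the highest vehicle library and the sixth just below it, whereas 1.73% of all genes tested had no overlap at all at that dose. The fold of ME1 was 1.30 at 30 mg/kg (1.08 to 1.56; log2 0.37 ± 0.13, SE; unadjusted p = 0.00759, adjusted p = 0.33 by edgeR). It was 1.21 at 10 mg/kg (1.00 to 1.45, unadjusted p = 0.0499, adjusted p = 0.526) and 1.27 there without replicate 2 (adjusted p = 0.157). In the fit without that library, at 30 mg/kg the adjusted p was 0.0614 for ME1 and 0.0681 for PGD, with folds of 1.30 and 1.24. Both genes are also known in liver and fat as part of the lipogenic programme that feeds fatty acid synthesis with NADPH. Of 25 genes known as targets of SREBP, the transcription factors of lipid synthesis, 20 rose at 30 mg/kg and 18 at 10 mg/kg over all genes tested, with median log2 differences of 0.94 and 0.78, beside 0.568% and 0.419% of all genes called higher. The part of that response in the values of PGD and ME1 was not tested.

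The values of NQO1 and OSGIN1 overlapped widely between the groups. NQO1 (Entrez 1728), a quinone reductase and a widely used readout of NRF2, had a median of 129 CPM under vehicle (116 to 159), 132 in the 10 mg/kg group (51.3 to 156) and 139 in the 30 mg/kg group (110 to 155). No library at either dose lay above the highest vehicle library. Its fold was 1.03 at 30 mg/kg (95% interval 0.837 to 1.26, adjusted p = 0.996) and 0.937 at 10 mg/kg (0.76 to 1.15, adjusted p = 0.869), or 1.01 without replicate 2, where it had 24 counts. OSGIN1 (Entrez 29948), a gene known to respond to oxidised lipids, had a median of 9.88 CPM under vehicle (5.49 to 13.4), 12.0 in the 10 mg/kg group (6.29 to 23.5) and 12.2 in the 30 mg/kg group (8.77 to 14.3). It was the least abundant and the most scattered of the 9, with a coefficient of variation of 32.2% with vehicle, and 10 mg/kg replicate 2 was its highest library. Its fold was 1.19 at 30 mg/kg (0.844 to 1.69, adjusted p = 0.925) and 1.16 at 10 mg/kg (0.806 to 1.67, adjusted p = 0.82), or 1.08 without replicate 2.

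**Figure D2:**
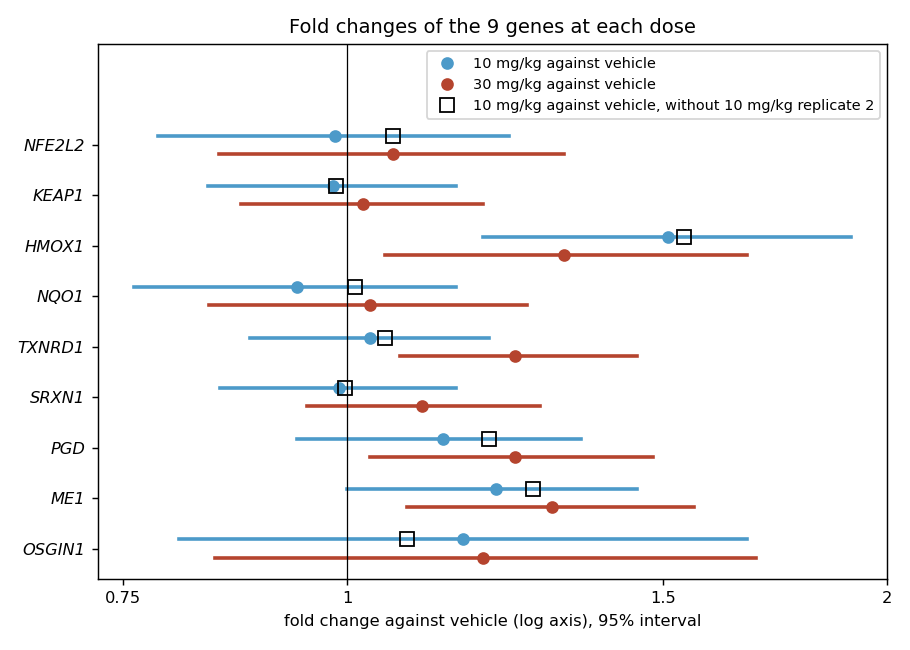
Fold change against vehicle on a log axis for each gene at 10 mg/kg (upper line) and 30 mg/kg (lower line), with the 95% interval of the edgeR model, not widened for the number of genes; open squares give 10 mg/kg without its replicate 2. HMOX1 stands farthest right at 1.51-fold and 1.32-fold, the lower ends of TXNRD1, PGD and ME1 at 30 mg/kg lie above 1, and NFE2L2, KEAP1 and NQO1 sit near 1.

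Between the doses, 30 mg/kg against 10 mg/kg, 0 of 14074 genes passed and 3.52% had an unadjusted p under 0.05, among the 9 genes TXNRD1 alone, which was higher, as 1.66% of all genes were. The other folds lay between 0.876 for HMOX1 (95% interval 0.693 to 1.11) and 1.11 for SRXN1 (0.956 to 1.3). A linear trend across dose (coded 0, 1, 2) called 0.49% of all genes and 0 of the 9, all of which had a slope above 0, except that KEAP1 was at -0.008 on the log2 scale with sample weights and ran from -0.026 to 0.042 with 1 library left out. The same 4 genes as at 30 mg/kg had an unadjusted p under 0.05 for the line, where 4.04% of all genes were higher at that level. The slope of TXNRD1 was 1.12-fold a step (1.03 to 1.2, adjusted p = 0.327) and that of ME1 1.14-fold (1.04 to 1.25, adjusted p = 0.35). In data simulated from these counts, 43.3% of genes changed 1.5-fold were recovered at 30 mg/kg, 34.3% at 10 mg/kg, both against vehicle, and 22.4% between the doses. Of genes changed 2-fold, 70.1%, 79.1% and 76.1% were recovered in that order, and of those changed 4-fold 97%, 95.5% and 92.4%. The changed genes were drawn from all genes tested, so the shares are not those of the 9. The simulated libraries differed in depth but did not copy the distinct profile of 10 mg/kg replicate 2.

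**Figure D3:**
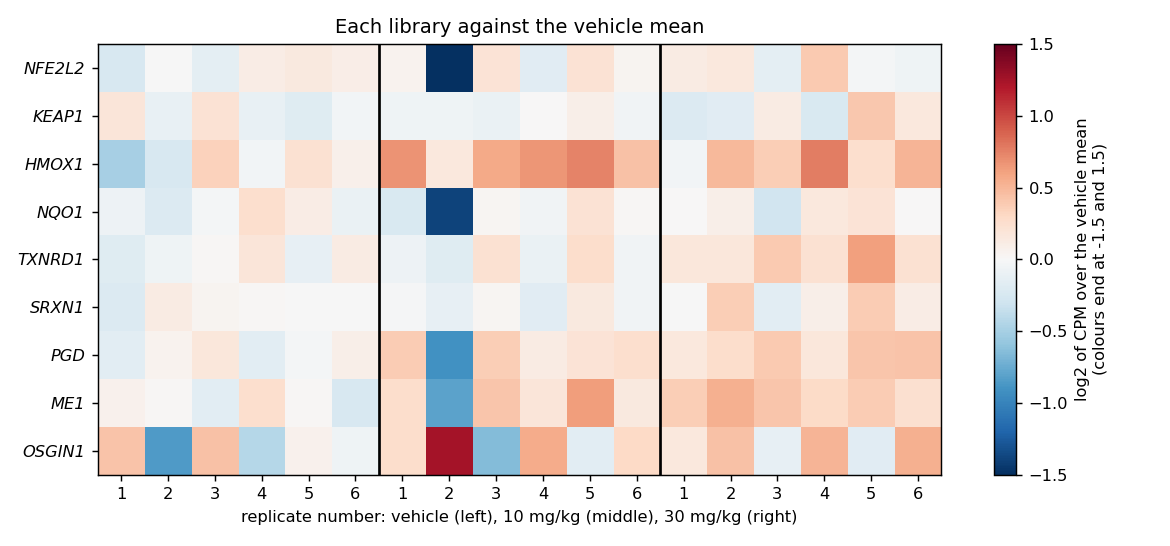
Each column is a library and each row a gene; colour is the log2 of the library's CPM over the vehicle mean, so red is above it and blue below. The 10 mg/kg replicate 2 column is blue for NFE2L2, NQO1, PGD and ME1 and red for OSGIN1, HMOX1 is red in most dosed libraries, and the 30 mg/kg columns are red throughout for ME1, PGD and TXNRD1.

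The wider NRF2 network was read from lists chosen with earlier results of these data known. Among 17 partners and regulators of NRF2, all of them tested, 0 passed at either dose, with median log2 differences of 0.02 at 30 mg/kg and 0.10 at 10 mg/kg. SQSTM1, the autophagy receptor p62 that sequesters KEAP1, came nearest and did not pass. Its mean was 227 ± 20.3 CPM under vehicle, 299 ± 26.6 in the 10 mg/kg group and 299 ± 35.2 in the 30 mg/kg group (SD, 6 libraries a group), 1.32-fold at each dose (adjusted p = 0.0762 at 30 mg/kg and 0.089 at 10 mg/kg by edgeR). At 10 mg/kg its lowest library, replicate 2 at 267 CPM, was still above the highest vehicle library at 263 CPM. Groups did not overlap for 1.16% of all genes tested at that dose. At 30 mg/kg the lowest library of SQSTM1, at 262 CPM, lay below that vehicle library, so the groups overlapped. NFE2L1, the related factor NRF1, was at 1.25-fold at each dose (adjusted p = 0.512 at 30 mg/kg and 0.448 at 10 mg/kg).

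Of 15 thioredoxin and peroxiredoxin genes tested, 0 passed, with medians of 0.12 at 30 mg/kg and -0.01 at 10 mg/kg. PRDX5, a peroxiredoxin of mitochondria and peroxisomes, was at 1.43-fold at 30 mg/kg and 1.40-fold at 10 mg/kg (adjusted p = 0.13 and 0.205 in that order). SESN2, a stress-induced sestrin, was at 1.27-fold and 1.45-fold (adjusted p = 0.676 and 0.301), with 79.1 CPM in 10 mg/kg replicate 2. Of 15 genes of NADPH supply tested, 0 passed, with medians of 0.05 and 0.02. IDH1, the cytosolic isocitrate dehydrogenase, was at 1.32-fold and 1.31-fold (adjusted p = 0.428 and 0.414), and MTHFD2, a mitochondrial folate enzyme, at 1.27-fold and 1.11-fold (adjusted p = 0.504 and 0.774).

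Of 21 genes of the glutathione system tested, 2 rose at 30 mg/kg and 1 rose at 10 mg/kg, beside 0.568% and 0.419% of all genes, with medians of 0.08 and 0.05. CHAC1, which degrades glutathione, rose 3.64-fold at 30 mg/kg and 2.98-fold at 10 mg/kg (adjusted p = 0.00125 and 0.0149). Its level was low, with means of 2.21 ± 0.609 CPM under vehicle, 6.45 ± 2.09 in the 10 mg/kg group and 8.17 ± 3.33 in the 30 mg/kg group (SD). SLC7A11, the cystine importer, rose 2.06-fold at 30 mg/kg (adjusted p = 0.00126) and was at 1.68-fold at 10 mg/kg (adjusted p = 0.0551). Both are also known targets of ATF4, the transcription factor of the amino acid stress response, and stand in that list too, of whose 16 genes tested 5 rose at 30 mg/kg and 3 at 10 mg/kg, beside the same shares of all genes (0.568% and 0.419%), with medians of 0.45 and 0.46. TRIB3, a pseudokinase, rose 1.71-fold and 1.65-fold (adjusted p = 0.00307 and 0.0153). ASNS, which makes asparagine, rose 1.80-fold at 30 mg/kg (adjusted p = 0.00426) and was at 1.41-fold at 10 mg/kg (adjusted p = 0.269). The parts of NRF2 and of ATF4 in the values of CHAC1 and SLC7A11 were not tested.

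Other oxidant defence lists held no call. Of 11 heme and iron genes tested 0 passed (medians 0.10 at 30 mg/kg and 0.08 at 10 mg/kg). TFRC, the transferrin receptor, was at 0.962-fold and 0.791-fold (adjusted p = 0.987 and 0.322), and BLVRA, a biliverdin reductase, at 1.26-fold and 1.35-fold (adjusted p = 0.648 and 0.412). Of 18 detoxification genes known as NRF2 targets, 0 passed (medians 0.08 and 0.02), and the pair with the smallest p-values lay below the vehicle level. These were ABCC4, an efflux transporter, at 0.871-fold and 0.78-fold (adjusted p = 0.753 and 0.269), and ALDH3A2, a fatty aldehyde dehydrogenase, at 0.895-fold and 0.832-fold (adjusted p = 0.812 and 0.395). Of 8 superoxide and peroxide enzymes 0 passed (medians 0.05 and -0.04). MSRB1, a selenoprotein that repairs methionine, was at 1.37-fold and 1.42-fold (adjusted p = 0.346 and 0.263), and SOD2, the mitochondrial superoxide dismutase, at 0.85-fold and 0.79-fold (adjusted p = 0.71 and 0.384).

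**Figure D4:**
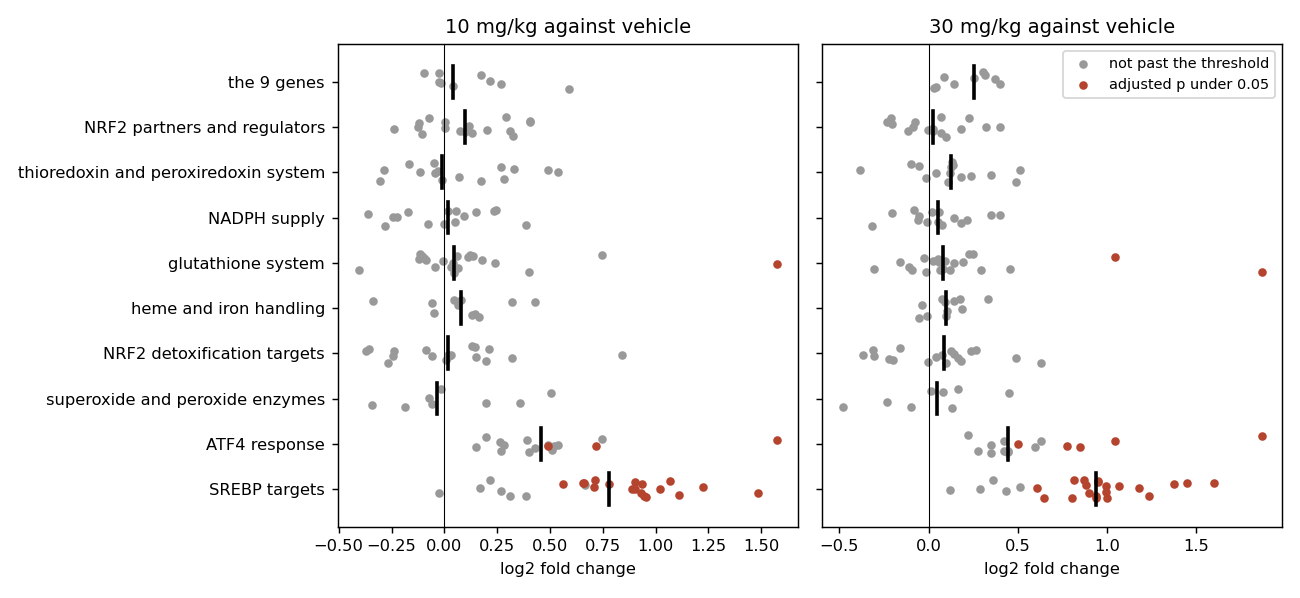
Log2 fold changes against vehicle of every tested gene among the 9 and in 9 lists, from NRF2 partners to SREBP targets, 10 mg/kg on the left and 30 mg/kg on the right; black bars are list medians and red points passed the threshold over all genes. Red points lie in the SREBP, ATF4 and glutathione rows, and the medians of the other 7 rows drawn lie between -0.04 and 0.26.

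Differences between libraries of the same group were also compared across the 9 genes. After each group mean was taken off, and without 10 mg/kg replicate 2, the 36 pairs of the 9 genes had a median Pearson correlation of 0.19 over 17 libraries, and 22 pairs were above 0. With that library the median was 0.298, and NFE2L2 and PGD had r = 0.834 with it and -0.214 without it. The most opposed pair was NFE2L2 and KEAP1 (Pearson r = -0.682, Spearman rho = -0.686), and r was -0.672 without the 2 libraries farthest from the median of NFE2L2. NFE2L2 went with NQO1 (r = 0.515, rho = 0.598), and TXNRD1 ran against OSGIN1 (r = -0.63, rho = -0.618). These pairs were picked after their values were seen, and the points share library depth and preparation, so they are descriptions.

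Among 8694 genes with a mean of at least 20 CPM, those most like NFE2L2 over the 17 libraries included AP3S1 and RPL36 (r = 0.904 and 0.896). Those most like KEAP1 were UHRF1, CHCHD3 and ARL2BP (0.94, 0.922 and 0.912). NQO1 was closest to LAMP2, TMED5 and TTK (0.919, 0.884 and 0.88), and TXNRD1 to HSPD1, ETF1 and LOC100288637 (0.874, 0.87 and 0.869). The best matches of the remaining genes were TADA3 for HMOX1 (0.784), UTP18 for SRXN1 (0.855), CNPY3 for PGD (0.881), NRDC for ME1 (0.799) and CDH1 for OSGIN1 (0.805). Several likenesses depend on the libraries used, since with all 18 libraries r was 0.129 for PGD and CNPY3 and -0.195 for OSGIN1 and CDH1. Each match was picked from the top of a search over 8694 genes with 17 libraries. High values can arise from such a search alone, so these r values are descriptions.

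**Figure D5:**
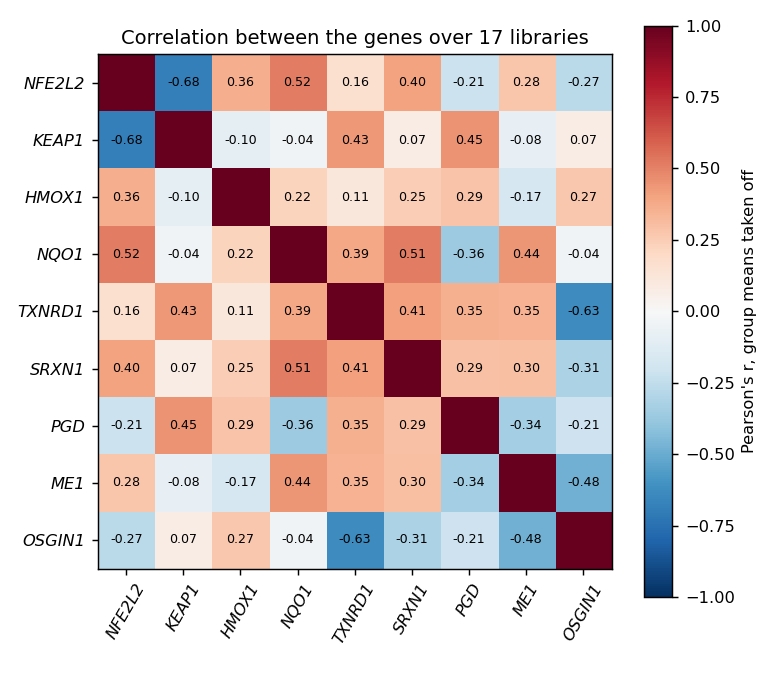
Pearson correlation between each pair of the 9 genes over 17 libraries, from log2(CPM + 0.5) with group means taken off and 10 mg/kg replicate 2 left out; red is positive and blue negative. NFE2L2 and KEAP1 are the most opposed pair at -0.682, and NFE2L2 with NQO1 the most alike at 0.515.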

How the data were processed

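Per the labels, total RNA came from homogenised xenografts, and libraries were made from 5 ng with a stranded total RNA kit. The submitters' processing notes name STAR 2.4.2a and the builds hg19 and mm10, without roles. The quantifier, its annotation, the split of reads between human and mouse and the use of strand were not given in the sources used here. Each library has 1 table deposited by the authors, with unscaled expected counts per gene and TPM, scaled per transcript length by the authors. Of 25343 Entrez IDs, 25220 matched a symbol directly and 26 by transcript accession.

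Expected counts were rounded, filtered by filterByExpr (14074 genes left), scaled by TMM and fitted over all 18 libraries in edgeR 4.0.16 (R 4.3.3) by robust quasi-likelihood, with Benjamini-Hochberg adjustment over all genes. Standard errors and 95% intervals follow from the model's F statistic. Alternatives used DESeq2 1.42.0, limma 3.58.1, other scalings and filters, TPM, a replicate block, each library left out and, added after the data were seen, voom with sample weights. The model was tested on simulated data with 200 changed genes. The genes, lists and naming rule were chosen with earlier results of these data known: the 9 genes always, up to 4 called genes of a list, otherwise up to 2 with the smallest p, and the 3 genes most like each of the 9, of which the text gives 1 to 3 for each; 1 gene is not reported here. SREBP targets are given as counts only. Promoter windows are from RefSeq, GRCh38.p14; since the deposited tables carry no coordinates of that build, no gene coordinates are given.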

Additional observations from a re-analysis of the deposited data

Results flagged for a closer look

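Among 27 groups of 6 values, 3 for each gene, 2 held a library set far apart from the rest of its group, where about 1 in 20 groups is expected to by chance. Both were 10 mg/kg replicate 2, the library with the fewest counts. NFE2L2 had 21.4 CPM there, and 70.9 to 93.1 CPM in the rest of the 10 mg/kg group. PGD had 62.0 CPM there, and 126 to 151 CPM in that rest. HMOX1 (12.8 CPM), NQO1 (51.3 CPM), TXNRD1 (107 CPM) and ME1 (29.9 CPM) were also lowest of their group there, and OSGIN1 (23.5 CPM) was highest.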

How the results depend on the processing

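The count of 0 among the 9 genes held in every comparison under DESeq2, limma-voom, both TPM scales, both other scalings, both other filters, the replicate block and each library left out (0 to 0), and with the groups compared alone in the 3 comparisons between groups; the line over dose steps uses all groups. With voom and sample weights, added after the data were seen, it was 1 in each of 10 mg/kg against vehicle (HMOX1, adjusted p = 0.0343), 30 mg/kg against vehicle (ME1, adjusted p = 0.0369) and the line over dose steps (ME1, adjusted p = 0.0343). Over all genes the count at 10 mg/kg, 66, became 32 with no filter, 159 with DESeq2, 12 and 11 on log2(TPM + 1) and log2(TPM + 0.1), 36 with the groups compared alone, 24 with the replicate block and 235 with sample weights, and lay between 31 (without vehicle replicate 5) and 121 (without 10 mg/kg replicate 2). At 30 mg/kg 87 became 57, 179, 23, 26, 191 and 315 in that order without the block, and 61 to 182 with a library left out. Between the doses it stayed at 0. Of 18 pairs of libraries with the same replicate number 3 correlated above 0.1 (r from -0.37 to 0.29). Pairs with unlike numbers were not compared, so whether the numbers pair the libraries is not settled.

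Fold changes near 1 turned sign. On the log2 scale at 10 mg/kg against vehicle, NFE2L2 was 0.051 and NQO1 0.010 with sample weights, TXNRD1 was -0.021 with no filter and -0.083 and -0.085 on the TPM scales, and PGD was -0.023 and -0.025 there. At 30 mg/kg KEAP1 was -0.002 on both TPM scales and -0.021 with sample weights, and -0.007 between the doses. With 1 library left out, ranges at 10 mg/kg were -0.078 to 0.080 for NFE2L2, -0.062 to 0.036 for KEAP1, -0.167 to 0.009 for NQO1, -0.009 to 0.090 for TXNRD1 and -0.052 to 0.024 for SRXN1. KEAP1 ran from -0.053 to 0.083 at 30 mg/kg, and between the doses KEAP1 ran from -0.039 to 0.094 and OSGIN1 from -0.122 to 0.141. The cause was not tested. The TPM scales shift the median of all genes at 10 mg/kg by -0.11 and -0.12. HMOX1, ME1 and OSGIN1 were above the vehicle level in every one of these settings at both doses.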

Other observations

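Other lists were read from the same fit. Of 11 heat shock genes tested 0 passed, with median log2 differences from vehicle of 0.06 at 30 mg/kg and 0.09 at 10 mg/kg. HSPA1A, a stress-induced chaperone whose reads are hard to tell from those of its near-identical copy HSPA1B, stood at 126 CPM in 10 mg/kg replicate 2, against at most 11.5 CPM with vehicle. It was at 1.56-fold at 30 mg/kg (adjusted p = 0.942) and 3.72-fold at 10 mg/kg (adjusted p = 0.404). HSPB1, a small heat shock protein, was at 1.23-fold at 30 mg/kg and 1.24-fold at 10 mg/kg (adjusted p = 0.573 and 0.455).

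Of 14 hypoxia genes tested 0 passed, with medians of 0.10 at 30 mg/kg and 0.02 at 10 mg/kg. VEGFA, the vascular growth factor, was at 1.39-fold and 1.43-fold (adjusted p = 0.359 and 0.283). ADM was at 0.761-fold and 1.04-fold (adjusted p = 0.844 and 0.977 by edgeR). Of 12 colon epithelial markers, 8 had enough counts to be tested, and 0 of these passed. TSPAN8 was among those not tested. EPCAM, an epithelial adhesion protein, had a mean of 349 ± 43.7 CPM under vehicle (SD, 6 libraries a group). Its mean was 391 ± 29.2 CPM in the 10 mg/kg group and 418 ± 55.9 CPM in the 30 mg/kg group. The adjusted p of EPCAM was 0.51 at 30 mg/kg by edgeR. At both doses KRT8 and KRT18 lay below the vehicle level and the other tested markers above it. KRT8 was at log2 -0.055 at 30 mg/kg and -0.149 at 10 mg/kg, and KRT18 at -0.209 and -0.292. Of 3 macrophage and leukocyte, 3 fibroblast and 3 endothelial markers that passed the filter, 0 were called at either dose, and no erythroid marker passed the filter. Fibroblast sums had medians of 96.4, 93.6 and 90.2 CPM in the vehicle, 10 mg/kg and 30 mg/kg libraries, and reached 323 CPM in 10 mg/kg replicate 2. All these markers are human genes, so they cannot gauge mouse host cells.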
